A study of Mus musculus with 9 samples.

Results

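The 10 genes described here, Cdkn1a, Mdm2, Gdf15, Plk2, Sesn1, Sesn2, Ccng1, Trp53inp1, Phlda3 and Btg2, are known transcriptional targets of p53. They were taken by gene symbol from a deposited count table of 49315 genes, and all 10 were counted in every library. RNA came from RAW 264.7 cells, an established mouse macrophage line from which RANKL, the cytokine of osteoclast formation, can produce osteoclast-like cells. By the growth notes, RANKL was added to the cells at 20 ng/ml after 24 h of culture. The first group, labelled as receiving no treatment, is called the control and was read as RANKL alone, because every sample carries the same growth note with RANKL. The second group had 140 µM pamidronate from a total of 48 h. The third group had the same dose of pamidronate together with 5.25 µM geranylgeraniol (GGOH). Cells were pelleted 24 h after that step, and each group has 3 libraries. Pamidronate is a nitrogen-containing bisphosphonate that blocks farnesyl diphosphate synthase, and GGOH is an alcohol from which cells can make the geranylgeranyl lipid that anchors small GTPases. All the cells are of 1 line in culture, and no pamidronate-free group with GGOH was analysed here.

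The transcription factor p53, the product of Trp53, is held at a low level in unstressed cells by the ubiquitin ligase Mdm2 and is stabilised by DNA damage and other stress. It binds DNA as a tetramer, at a pair of short palindromic half-sites, and raises genes that stop the cell cycle, repair DNA, dampen growth signalling, promote cell death or switch p53 itself off again. Mdm2 is both inhibitor and target, which closes a negative feedback loop. Several of the 10 genes also respond to other factors: Gdf15 and Sesn2, for instance, are known targets of the integrated stress response through Atf4 and Ddit3.

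The bases just upstream of the genes were read first for the sequence that p53 binds. In the RefSeq promoter table for GRCm38.p6, 9 of the 10 genes had an entry, Trp53inp1 being the one without, and some had more than 1 start site, giving 12 windows from 250 bases before to 50 bases after a start. A p53 half-site, searched under its standard consensus on both strands, occurred in 4 of the 12 windows and in 8.36% of all 32851 windows of that length. The genes with a match were Cdkn1a, Mdm2, Ccng1 and, at its downstream start site, Sesn1. A full site meant a pair of half-sites with no spacer, at most 2 letters off the consensus, with the C and G of both half-sites kept. It occurred in 0.326% of all windows and in 2 of the 12, those of Cdkn1a, at its upstream start site, and Ccng1. Those windows are shown up to the base before the start site, on the strand of the gene and from 5′ to 3′, with half-site matches in capitals. The window of Cdkn1a is chr17:29090729-29090978 on the plus strand and that of Ccng1 is chr11:40755287-40755536 on the minus strand.
Cdkn1a: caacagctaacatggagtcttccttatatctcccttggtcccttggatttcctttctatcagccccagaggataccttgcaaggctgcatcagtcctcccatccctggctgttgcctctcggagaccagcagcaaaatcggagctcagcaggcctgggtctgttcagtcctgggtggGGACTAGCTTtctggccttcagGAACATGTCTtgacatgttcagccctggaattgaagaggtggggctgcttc
Ccng1: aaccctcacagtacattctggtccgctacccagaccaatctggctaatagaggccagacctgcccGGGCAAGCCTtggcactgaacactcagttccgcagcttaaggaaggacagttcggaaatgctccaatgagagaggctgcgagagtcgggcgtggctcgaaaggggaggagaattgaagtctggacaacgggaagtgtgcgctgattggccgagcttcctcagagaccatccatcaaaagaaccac
In the Cdkn1a window the full site reads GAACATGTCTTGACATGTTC, lies at chr17:29090928-29090947 and is 1 letter off the consensus. It lies 2841 bases before the downstream Cdkn1a start site. The Ccng1 window holds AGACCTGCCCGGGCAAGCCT at chr11:40755462-40755481, also 1 letter off. For Mdm2 the single match is GAACTTGCCT at chr10:117710935-117710944, and for Sesn1 it is AAGCTTGTTT at chr10:41887266-41887275. These 4 genes did not move together in the libraries: Cdkn1a and Mdm2 were higher with pamidronate and Ccng1 and Sesn1 were lower. Gdf15 and Plk2, whose fold changes were the largest of the 10, had no match in their windows. A match is a description of letters and not a measured binding site, and no match says only that these letters are not in the window. The p53 sites known for Mdm2 lie in its first intron, outside this window. The composite Atf4 site, TGATGNAA, was in 0 of the 12 windows and in 3.97% of all windows, and the cAMP response element core TGACG was in 4 of 12, those of Btg2, Sesn1, Mdm2 and Plk2, against 20.8% of all.

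Library totals ran from 14356069 to 18957968 counts, and 15963 genes, all 10 p53 targets among them, had enough counts to be tested. The control titles call their samples biological replicates. The labels of the other groups do not say whether each sample was its own culture, so p-values there cover only the spread seen between libraries, which may be technical. Mitochondrial genes took 10.4 to 10.8% of counts in the control, 3.71 to 5.19% with pamidronate and 5.43 to 6.31% with pamidronate + GGOH. The summed level of 10 macrophage markers was 15945 to 20592 CPM (counts per 1e6, TMM-scaled) in the control, 4854 to 6843 CPM with pamidronate and 6938 to 10038 CPM with pamidronate + GGOH, with none at 0. Lyz2 makes up most of that sum (13708 CPM on average in the control), and the 10 did not move alike: 9 fell with pamidronate and Cd14 was not called, and with GGOH added 6 rose, Cd68 fell and 3 were not called. The summed level of 10 osteoclast markers was 217 to 247, 349 to 495 and 317 to 331 CPM in the same order. Of these 10, 7 were tested: 4 rose and 1 fell with pamidronate. With GGOH against pamidronate 2 rose and 3 fell, and against the control 5 rose and 1 fell. Over all tested genes, 36.2% rose and 32.9% fell, 25.2% and 23.6%, and 26.3% and 26% in the same order. Among the osteoclast markers, Calcr was at 0 in the control and pamidronate libraries, and Acp5 averaged 5.27 CPM in the control. The 16 markers of other cell types summed to at most 7.49 CPM in any library. These values differ between the same groups as the genes below, and their part in those results was not tested. In RNA from whole cultures, fewer cells of a type and less RNA per cell cannot be told apart.

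Pamidronate raised 6 of the 10 genes and lowered 3. Plk2 and Gdf15 rose most, followed by Trp53inp1, Mdm2, Cdkn1a and Phlda3, and Sesn1, Btg2 and Ccng1 fell. Sesn2 did not pass the test. A gene was called at a Benjamini-Hochberg adjusted p under 0.05 in edgeR's quasi-likelihood test over all tested genes. Pamidronate changed much of the transcriptome: 69.2% of all tested genes were called, 36.2% higher and 32.9% lower, so 9 called among 10 genes has to be read against that share. The libraries of the 2 groups did not overlap for 9 of the 10 genes (73.4% of all tested genes), 6 in the higher direction (38.7%) and 3 in the lower direction (34.7%). The median log2 fold change of the 10 genes was 1.01, beside 0.08 over all tested genes.

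With GGOH added to pamidronate, 8 of the 10 genes were lower than with pamidronate alone and 0 were higher. The log2 fold change was below 0 for all 10, so the count of 0 was the same in DESeq2 and limma-voom and at an unadjusted p under 0.05. In this comparison 48.8% of all tested genes were called, 25.2% higher and 23.6% lower. The libraries stood apart for 7 of the 10 genes (59.6% of all tested genes), each of them lower (29.7%), and Ccng1 was called although its libraries overlapped. The median log2 fold change of the 10 genes was -0.64, beside 0.0026 over all tested genes. Against the control, pamidronate + GGOH left 3 genes higher, Plk2, Gdf15 and Mdm2, and 4 lower, Sesn1, Ccng1, Btg2 and Phlda3, where 52.4% of all tested genes were called, 26.3% higher and 26% lower. Here the libraries stood apart for 7 of the 10 genes (58.2% of all tested genes), 3 higher (29.9%) and 4 lower (28.4%). The 3 comparisons share their groups pairwise, so they are given side by side and not as separate evidence.

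**Figure D1:**
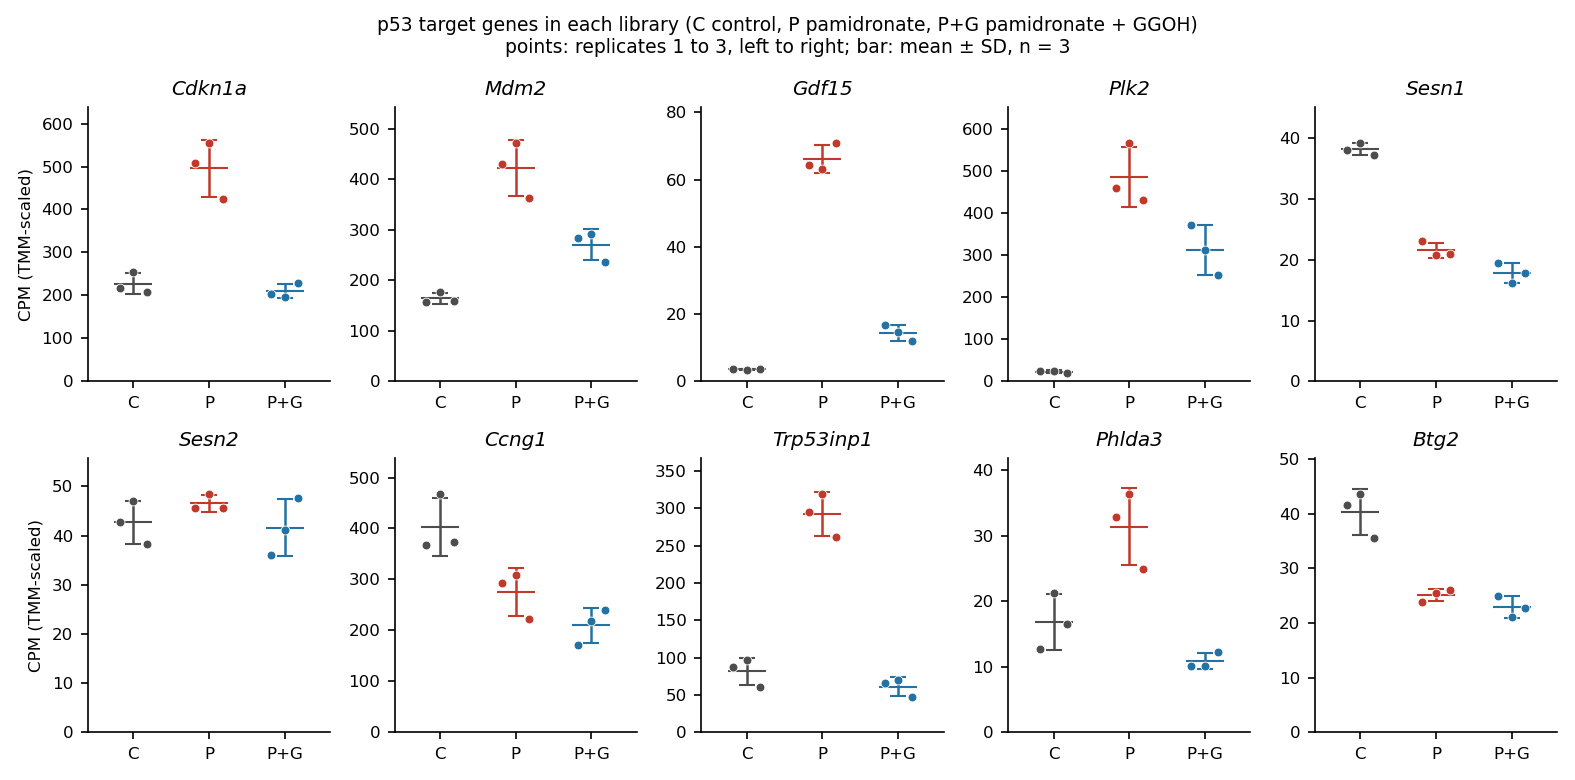
Each panel plots 1 of the 10 p53 target genes, with CPM on the y axis and the 3 groups on the x axis (C control, P pamidronate, P+G pamidronate + GGOH), as points for libraries 1 to 3 and a bar for the mean ± SD (n = 3). Cdkn1a with GGOH (197 to 229 CPM) overlaps the control (208 to 255 CPM), Plk2 with GGOH stays at 253 to 373 CPM against 19.1 to 24.9 CPM in the control, and Sesn1, Ccng1 and Btg2 are highest in the control.

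Mdm2, the ubiquitin ligase that marks p53 for degradation, was counted at 157, 177 and 160 CPM in control libraries 1 to 3, at 431, 473 and 364 CPM with pamidronate, and at 284, 293 and 236 CPM with pamidronate + GGOH. The groups formed 3 separate levels with no overlap, the pamidronate libraries highest and the GGOH libraries between. The rise with pamidronate was 1.36 ± 0.11 (SE) on the log2 scale (edgeR adjusted p = 1.03e-07), or 2.57-fold. With GGOH the level fell by 0.64 ± 0.11 (SE) from that with pamidronate (edgeR adjusted p = 0.000274) and remained 0.72 ± 0.11 (SE) above the control (edgeR adjusted p = 0.000126). In GRCm38 the files' Mdm2 (ENSMUSG00000020184) spans chr10:117688888-117710758 on the minus strand.

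The genes around Mdm2 in the p53 circuit did not share 1 direction. Trp53 itself averaged 161 CPM in the control, 76.5 CPM with pamidronate and 92.1 CPM with pamidronate + GGOH, a fall of 1.07 ± 0.17 on the log2 scale with pamidronate (edgeR adjusted p = 0.000214). Mdm4, the Mdm2 relative that restrains p53 as a transcription factor, went from 152 to 579 CPM with pamidronate, a log2 fold change of 1.93 ± 0.09 (SE), and was at 196 CPM with GGOH, a fall of 1.57 ± 0.09 (SE) from pamidronate alone. Ppm1d, the phosphatase Wip1 that reverses p53 signalling and is itself a known p53 target, fell by 0.90 ± 0.11 (SE). Of the 21 genes listed as p53, its relatives and its regulators, 18 were tested. With pamidronate 6 of these 18 rose and 6 fell, 12 called beside 69.2% of all tested genes, and the split was 8 to 4 under upper-quartile scaling. Chek1, the kinase of the replication checkpoint, rose by 2.20 ± 0.31 (SE) and fell by 1.36 ± 0.29 (SE) when GGOH was added. Cop1, another ubiquitin ligase for p53, rose by 0.61 ± 0.10 (SE). Among the listed acetyltransferases that act on p53, Ep300 rose by 0.56 ± 0.11 (SE) and Kat5 by 0.43 ± 0.11 (SE), while Crebbp fell by 0.48 ± 0.09 (SE). With GGOH against pamidronate, 4 of the 18 rose and 10 fell (25.2% and 23.6% of all tested genes). Against the control 5 rose and 8 fell (26.3% and 26%), or 9 and 3 under upper-quartile scaling. Hipk2, a kinase that phosphorylates p53, was among the 4 that rose with GGOH, by 0.86 ± 0.09 (SE). Trp63, Trp73 and Cdkn2a, which encodes the Mdm2 inhibitor Arf, had too few counts to be tested.

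Cdkn1a encodes p21, the inhibitor of cyclin-dependent kinases through which p53 arrests the cell cycle. Its control libraries held 218, 255 and 208 CPM, the pamidronate libraries 507, 555 and 424 CPM, and the pamidronate + GGOH libraries 203, 197 and 229 CPM. The pamidronate libraries stood above all 6 others, and the other 2 groups overlapped. Cdkn1a rose by 1.13 ± 0.11 (SE), or 2.18-fold, with pamidronate (edgeR adjusted p = 6.65e-07) and fell by 1.24 ± 0.11 (SE) with GGOH (edgeR adjusted p = 1.38e-06). Against the control, the log2 fold change with GGOH was -0.11 ± 0.11 (SE) and did not pass the test (edgeR adjusted p = 0.414). Upper-quartile scaling turned that last value to 0.087, also not called, so no direction is given for it. Cdkn1a (ENSMUSG00000023067) lies at chr17:29090979-29100722 on the plus strand.

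Ccng1, which encodes cyclin G1, an Mdm2-binding cyclin-like protein, had the highest level per transcript length of the 10 genes in the control. Its control libraries held 368, 468 and 373 CPM, those with pamidronate 294, 309 and 222 CPM, and those with pamidronate + GGOH 172, 218 and 240 CPM. The control libraries were the highest, and the 2 treated groups overlapped. Ccng1 fell by 0.55 ± 0.15 (SE) with pamidronate (edgeR adjusted p = 0.0055) and was 0.94 ± 0.15 (SE) below the control with GGOH (edgeR adjusted p = 0.000271). The step between the treated groups, -0.39 ± 0.15 (SE), passed narrowly (edgeR adjusted p = 0.0467) and was lost under 11 of 18 other settings, with an adjusted p of up to 0.238. Its paralog Ccng2 moved the other way with pamidronate, by 0.56 ± 0.16 (SE), a call lost without control replicate 2 (adjusted p = 0.0557). Ccng1 (ENSMUSG00000020326) lies at chr11:40748552-40755311 on the minus strand.

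Btg2 encodes an antiproliferative protein that binds the Ccr4-Not deadenylase. The libraries held 41.6, 43.6 and 35.6 CPM in the control, 23.8, 25.6 and 26.0 CPM with pamidronate, and 25.0, 21.1 and 22.7 CPM with pamidronate + GGOH. Every control library was above every treated one, and the treated groups overlapped. Btg2 fell by 0.68 ± 0.11 (SE) with pamidronate (edgeR adjusted p = 4.61e-05) and was 0.81 ± 0.11 (SE) below the control with GGOH (edgeR adjusted p = 3.42e-05), and the treated groups differed by -0.13 ± 0.11 (SE), which did not pass (edgeR adjusted p = 0.341). Among its relatives of the Btg and Tob family, Tob2 fell with pamidronate by 0.62 ± 0.10 (SE) and Btg3 rose by 0.68 ± 0.13 (SE). Tob1 rose by 0.35 ± 0.11 (SE), a call lost without control replicate 3 (edgeR adjusted p = 0.0837). Btg4, at only 0.49 CPM on average in the control, rose by 1.21 ± 0.50 (SE) (edgeR adjusted p = 0.0429), and Btg1 was not called. Of 8 genes of the deadenylase and its poly(A)-binding partner, 2 rose and 2 fell with pamidronate. That compares with 36.2% and 32.9% of all tested genes, and 4 rose and 1 fell under upper-quartile scaling. The 2 that rose are the catalytic subunits Cnot7, by 0.41 ± 0.10 (SE), and Cnot8, by 0.50 ± 0.09 (SE), while another catalytic subunit, Cnot6, fell by 0.64 ± 0.08 (SE). Btg2 (ENSMUSG00000020423) lies at chr1:134075170-134079120 on the minus strand.

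Plk2, a polo-like kinase that acts in centriole duplication and in stress checkpoints, had the largest fold change of the 10 genes. Its control libraries held 24.9, 24.7 and 19.1 CPM, the pamidronate libraries 460, 568 and 432 CPM, and the pamidronate + GGOH libraries 373, 313 and 253 CPM. The 3 groups did not overlap, and the GGOH libraries lay between the others. In CPM they lay 37.5% of the way back from the pamidronate mean to the control mean on average, and 24.5 to 50.4% by library. Plk2 rose by 4.41 ± 0.17 (SE) with pamidronate (edgeR adjusted p = 2.2e-09), or 21.2-fold, more than 98.7% of all tested genes. With GGOH the level fell by 0.64 ± 0.15 (SE) (edgeR adjusted p = 0.00341) and stayed 3.77 ± 0.17 (SE), or 13.6-fold, above the control (edgeR adjusted p = 5.1e-08). Its paralog Plk3, a stress-responsive kinase, rose with pamidronate from 8.61 to 31.7 CPM, by 1.88 ± 0.13 (SE), and fell by 0.87 ± 0.12 (SE) with GGOH. Plk1, the mitotic kinase of the family, was not called. Its control libraries were far apart, at 5.14, 17.4 and 26.9 CPM, and overlapped those with pamidronate (4.96 to 9.11 CPM). Plk4 rose by 0.76 ± 0.23 (SE) with pamidronate, a call lost without control replicate 2 (edgeR adjusted p = 0.055). Plk2 (ENSMUSG00000021701) lies at chr13:110395044-110400844 on the plus strand.

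Gdf15 encodes a secreted stress cytokine of the TGF-beta superfamily that acts on appetite through a receptor in the hindbrain. The control libraries held 3.74, 3.47 and 3.59 CPM, those with pamidronate 64.5, 63.3 and 70.9 CPM, and those with pamidronate + GGOH 16.8, 14.6 and 12.0 CPM. It was the lowest of the 10 genes in the control, its 3 groups stood wide apart, and the GGOH libraries lay between the others. Gdf15 rose by 4.20 ± 0.14 (SE), or 18.4-fold, with pamidronate (edgeR adjusted p = 2.35e-10). It fell by 2.20 ± 0.12 (SE) with GGOH (edgeR adjusted p = 3.27e-08) and stayed 2.00 ± 0.14 (SE), or 4.01-fold, above the control (edgeR adjusted p = 2.48e-07). Gdf15 (ENSMUSG00000038508) lies at chr8:70629393-70632456 on the minus strand.

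Because Gdf15 and Sesn2 are also known targets of the integrated stress response, the genes of that response were counted beside them. Of 12 listed genes 11 were tested. With pamidronate 7 rose and 3 fell, or 7 and 2 under upper-quartile scaling, beside 36.2% higher and 32.9% lower of all tested genes. With GGOH against pamidronate 4 rose and 4 fell (25.2% and 23.6% of all tested genes). Against the control, 6 rose and 1 fell with GGOH (26.3% and 26%). Atf4, its central transcription factor, averaged 152 CPM in the control, 809 CPM with pamidronate and 331 CPM with pamidronate + GGOH. Ddit3, which encodes the factor Chop, rose by 2.86 ± 0.20 (SE) with pamidronate and fell by 1.03 ± 0.19 (SE) with GGOH. Slc7a11, the cystine transporter, went from 54.3 to 84.9 CPM with pamidronate and was higher again with GGOH, at 161 CPM, a log2 fold change of 0.92 ± 0.08 (SE) over pamidronate alone. The 3 that fell with pamidronate were Psat1, by 0.78 ± 0.11 (SE), Asns, by 0.50 ± 0.10 (SE), and Nupr1, by 0.42 ± 0.16 (SE). Nupr1 was called (edgeR adjusted p = 0.0282) although its control libraries (13.3 to 17.2 CPM) overlapped those with pamidronate (9.05 to 13.9 CPM).

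Trp53inp1 encodes a nuclear and autophagy-related protein that promotes p53-dependent cell death. Its libraries held 87.1, 96.6 and 61.5 CPM in the control, 296, 319 and 262 CPM with pamidronate, and 66.1, 70.7 and 47.0 CPM with pamidronate + GGOH. The pamidronate libraries stood clear of the rest, and the other 2 groups overlapped. It rose by 1.84 ± 0.19 (SE), or 3.58-fold, with pamidronate (edgeR adjusted p = 1.02e-05) and fell by 2.26 ± 0.19 (SE) with GGOH (edgeR adjusted p = 8.87e-06), the largest fall of the 10 genes. Against the control, the difference with GGOH was -0.42 ± 0.19 (SE) and was not called (edgeR adjusted p = 0.0847), but it was called by DESeq2 (adjusted p = 0.0318), with a replicate block (adjusted p = 0.0032), without the filter on low counts, and without control replicate 3. The paralog Trp53inp2 went the other way, from 78.2 CPM in the control to 51.2 CPM with pamidronate, a fall of 0.61 ± 0.09 (SE). Trp53inp1 (ENSMUSG00000028211) lies at chr4:11156431-11174379 on the plus strand.

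Phlda3 encodes a small protein of the pleckstrin homology type that competes with Akt for membrane phosphoinositides and so represses Akt signalling. Control libraries held 12.7, 21.2 and 16.5 CPM, pamidronate libraries 32.9, 36.4 and 24.9 CPM, and pamidronate + GGOH libraries 10.2, 10.2 and 12.3 CPM. The highest control library stayed below the lowest pamidronate library, and in CPM all GGOH libraries lay below the lowest control library. In the authors' TPM, which is scaled per library without TMM factors, the GGOH libraries (18.1 to 22.6) overlapped the control (17.3 to 31.4). Phlda3 rose by 0.90 ± 0.18 (SE), or 1.87-fold, with pamidronate (edgeR adjusted p = 0.000644) and fell by 1.53 ± 0.19 (SE) with GGOH (edgeR adjusted p = 2.65e-05). The value below the control with GGOH, -0.63 ± 0.19 (SE) (edgeR adjusted p = 0.0138), was lost under upper-quartile scaling and without control replicate 2 or GGOH replicate 2. Its relative Phlda1, at lower counts, rose from 3.86 to 15.8 CPM with pamidronate, by 2.03 ± 0.18 (SE), and fell by 1.38 ± 0.17 (SE) with GGOH, to 6.08 CPM. Unlike Phlda3, it remained above the control with GGOH, by 0.65 ± 0.19 (SE) (edgeR adjusted p = 0.00997). Of 9 genes of Akt, its kinase and the PP2A subunits, 7 fell and 1 rose with pamidronate. That compares with 32.9% and 36.2% of all tested genes, and the split was 5 to 1 under upper-quartile scaling. Akt1 fell by 0.82 ± 0.10 (SE), and the riser was Pdpk1, which encodes the kinase that activates Akt. Phlda3 (ENSMUSG00000041801) lies at chr1:135766119-135769136 on the plus strand.

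The sestrins are stress proteins that restrain the growth kinase mTORC1 through the GATOR complexes and AMPK. Sesn1 held 38.1, 39.2 and 37.3 CPM in the control libraries, 23.0, 20.7 and 20.9 CPM with pamidronate, and 19.5, 16.2 and 17.8 CPM with pamidronate + GGOH. In CPM the groups did not overlap and stepped down in that order. In the authors' TPM the libraries with pamidronate (12.7 to 14.8) and with pamidronate + GGOH (11.8 to 13.6) overlapped. Sesn1 fell by 0.82 ± 0.10 (SE) with pamidronate (edgeR adjusted p = 4.33e-06) and was 1.10 ± 0.10 (SE) below the control with GGOH (edgeR adjusted p = 2.51e-06). Its further step of -0.27 ± 0.10 (SE) between the treated groups (edgeR adjusted p = 0.0386) was lost under 11 of 18 other settings, with an adjusted p of up to 0.272. Sesn1 (ENSMUSG00000038332) lies at chr10:41809935-41908424 on the plus strand.

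Sesn2 was the 1 gene of the 10 called in none of the comparisons. Its libraries held 42.9, 47.0 and 38.3 CPM in the control, 45.5, 48.5 and 45.7 CPM with pamidronate, and 36.1, 41.2 and 47.6 CPM with pamidronate + GGOH. All 3 groups overlapped on this scale. The log2 fold change with pamidronate was 0.12 ± 0.11 (SE) (edgeR adjusted p = 0.322), and with GGOH against pamidronate it was -0.16 ± 0.11 (SE) (edgeR adjusted p = 0.239). Under upper-quartile scaling, which moved the median of all tested genes by 0.19, the first value was 0.32 and passed (edgeR adjusted p = 0.0131), and without control replicate 3 it was -0.0085, so the direction depends on the setting. In the authors' TPM, which is scaled per library without TMM factors, Sesn2 was 26.0 to 31.2 in the control and 32.3 to 34.0 with pamidronate. These ranges do not overlap. Sesn2 (ENSMUSG00000028893) lies at chr4:132492032-132510501 on the minus strand. Of 11 genes through which sestrins act, 2 rose and 4 fell with pamidronate, beside 36.2% and 32.9% of all tested genes. Under upper-quartile scaling 5 rose and 4 fell. Prkaa1, a catalytic subunit of AMPK, went from 89.1 to 19.8 CPM and with GGOH to 52.3 CPM, a fall of 2.17 ± 0.12 (SE) and then a rise of 1.40 ± 0.12 (SE). Nprl3, a subunit of the GATOR1 inhibitor of mTORC1, fell by 1.49 ± 0.14 (SE) and rose by 1.63 ± 0.14 (SE) with GGOH. The partners Tsc1 and Tsc2, which form 1 complex upstream of mTORC1, split: Tsc1 rose by 1.80 ± 0.13 (SE) and Tsc2 fell by 1.19 ± 0.12 (SE).

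**Figure D2:**
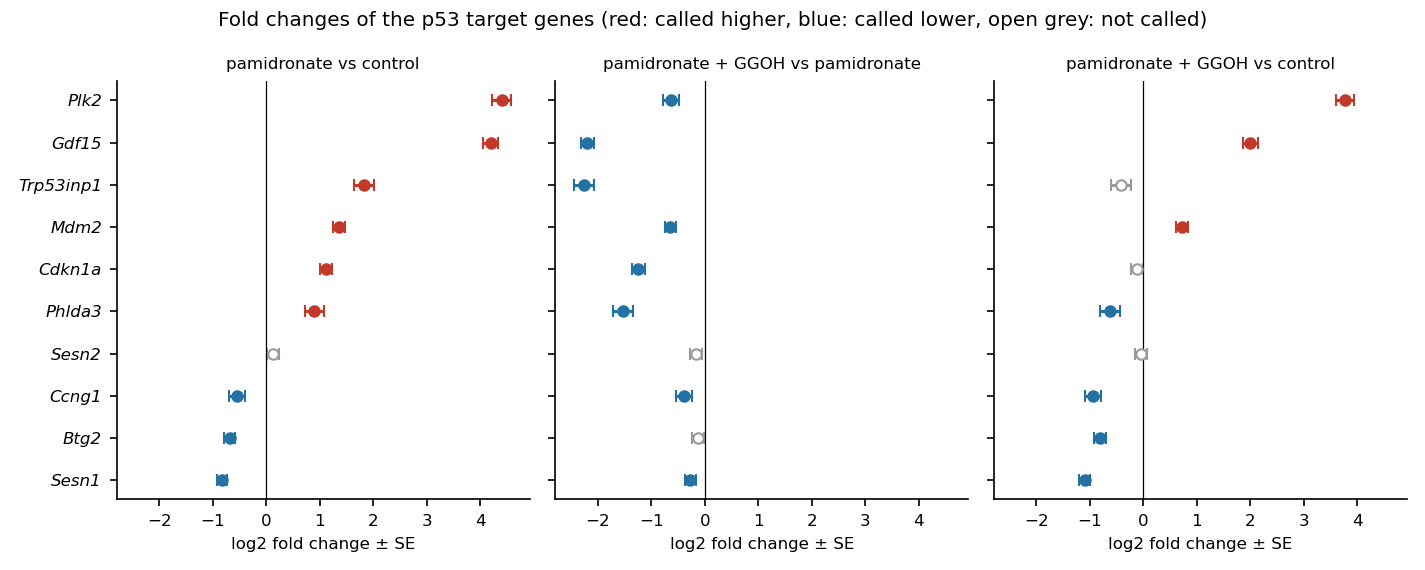
The x axes give the log2 fold change of each gene in the 3 comparisons as a point with its SE as a bar, in red where called higher, blue where called lower and open grey where not called. The middle panel holds no red point, and Plk2, Gdf15 and Mdm2 are the red points on the right.

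Within groups, the coefficient of variation of CPM ran from 2.58% for Sesn1 to 25.5% for Phlda3, both in the control. Control replicate 2 was the highest of its group for 8 of the 10 genes, and it was the highest for 23.7% of all tested genes. With pamidronate, replicate 2 was the highest for 7 of the 10 (33.9% of all) and replicate 3 the lowest for 6 (36.7%). The calls of all 6 risers and all 3 fallers with pamidronate held without any one of the 9 libraries.

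With pamidronate, the log2 fold changes of the 10 genes ran from -0.82 for Sesn1 to 4.41 for Plk2. They were set against those of all tested genes. Sesn1 fell more than all but 20.6% of tested genes, Cdkn1a rose more than 79.8% and Gdf15 more than 98.5%. In the comparison of GGOH with pamidronate alone, only 0.332% of tested genes had a lower log2 fold change than Trp53inp1 and only 0.388% had a lower one than Gdf15. Against the control, the log2 fold change of Plk2 with GGOH was above that of 98.3% of tested genes.

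**Figure D3:**
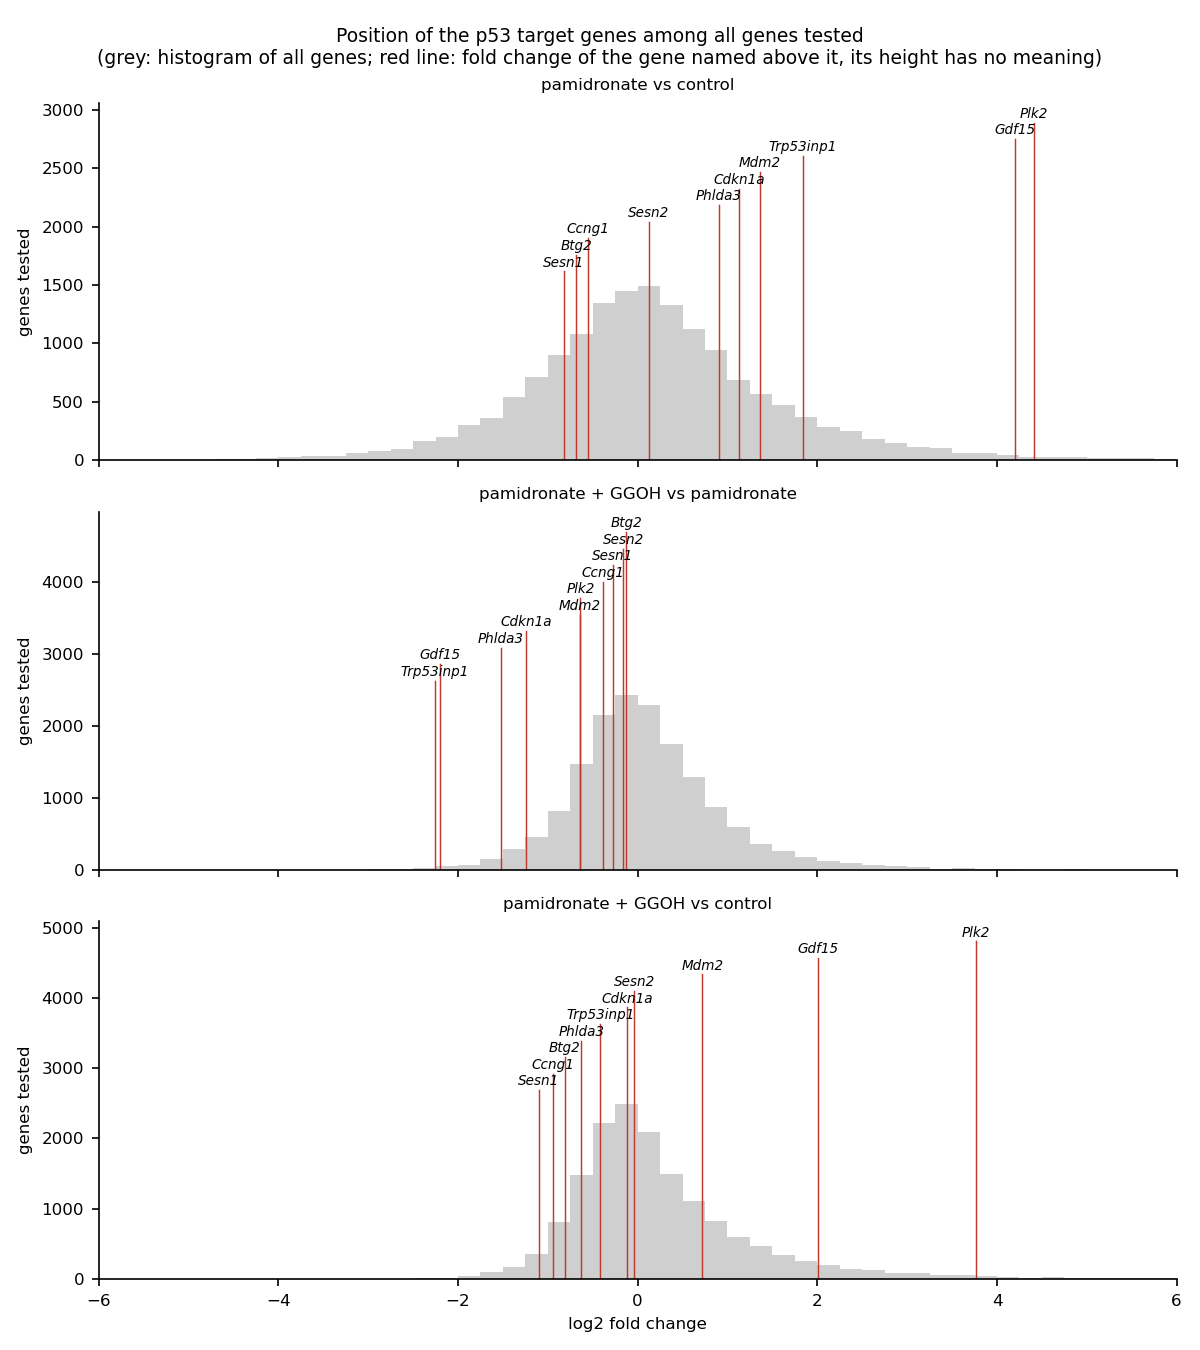
Grey histograms give the number of tested genes, on the y axis, at each log2 fold change, on the x axis, and red lines mark the 10 genes, with line heights that only make room for the names. With pamidronate Plk2 (4.41) and Gdf15 (4.20) lie in the right tail, and with GGOH against pamidronate all 10 lie at or left of -0.13.

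Levels of different genes were compared in the authors' TPM, which divides by gene length. In the control, Ccng1 (260 ± 43.4 TPM, SD, n = 3) and Cdkn1a (231 ± 29.3) led with overlapping libraries, followed by Mdm2 (73.5 ± 7.34), which stood apart from both neighbours. Btg2, Trp53inp1, Sesn2, Phlda3, Sesn1 and Plk2 then ran from 33.2 down to 18.5 TPM, and each overlapped the next in that order. Gdf15 was last at 4.40 ± 0.15 TPM and stood apart. With pamidronate the order was Cdkn1a (553 ± 74.7) and Plk2 (431 ± 58.5), which overlapped, then Mdm2 (207 ± 27.0) and Ccng1 (195 ± 34.1), which also overlapped. Below them Trp53inp1, Gdf15, Phlda3, Sesn2, Btg2 and Sesn1 ran from 112 to 13.5 TPM with no overlap between neighbours. Plk2 thus moved from rank 9 to rank 2 and Gdf15 from rank 10 to rank 6. With GGOH, Plk2 (318 ± 56.0) and Cdkn1a (269 ± 22.6) led and overlapped, Ccng1 (171) and Mdm2 (152) followed and overlapped, and Sesn1 was last at 12.7 TPM.

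**Figure D4:**
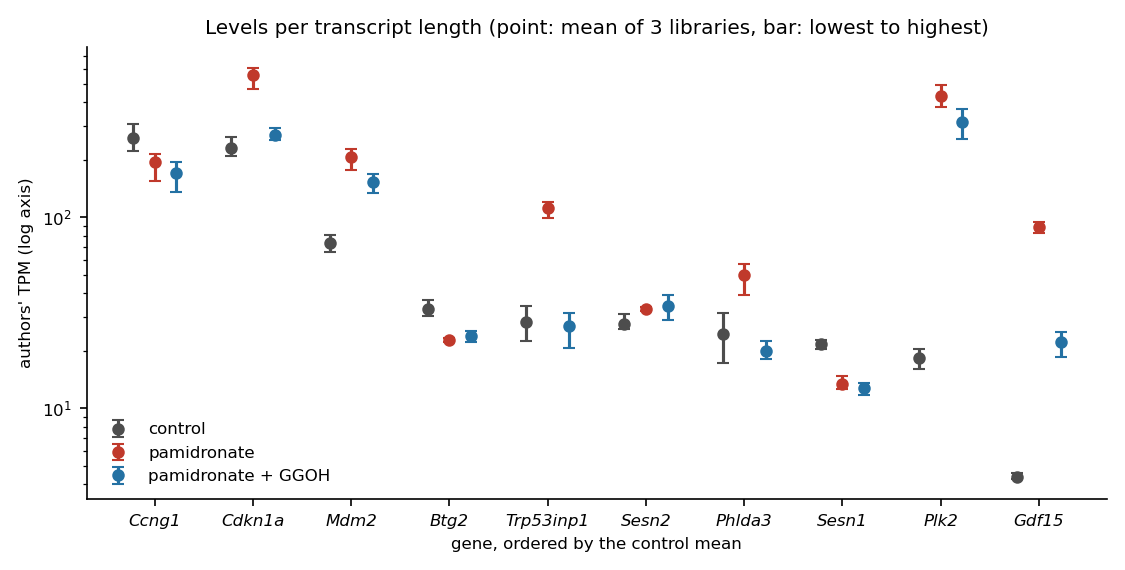
The log y axis gives the authors' TPM, with a point for the mean of 3 libraries and a bar from the lowest to the highest library in each group, and the x axis lists the genes from the highest to the lowest control mean. The 3 groups lie closest for Sesn2 (27.8 to 34.2 TPM on average) and farthest apart for Plk2 and Gdf15.

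Members of the same families as the 10 genes also changed. Of 17 paralogs 13 were tested, and 8 rose and 2 fell with pamidronate, beside 36.2% higher and 32.9% lower of all tested genes. Their median log2 fold change was 0.56. With GGOH against pamidronate, 0 rose by edgeR or DESeq2, 1 by limma-voom and 1 at an unadjusted p under 0.05, and 8 fell, with a median of -0.57. Of all tested genes 25.2% rose and 23.6% fell in that comparison. Against the control 5 rose and 4 fell, beside 26.3% and 26% of all tested genes. The 2 that fell with pamidronate were Trp53inp2 and Tob2. Cdkn1b, which encodes the p21 relative p27, averaged 83.4 CPM in the control and 80.6 CPM with pamidronate, was not called between them, and fell by 0.83 ± 0.10 (SE) with GGOH, to 45.2 CPM.

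Beyond the 10, other known p53 targets were divided with pamidronate. Over 2 lists together, 24 of 25 such genes were tested: 8 rose, 6 fell and 10 were not called, beside 36.2% higher and 32.9% lower of all tested genes, with a median of 0.05. In the cell death list, the BH3-only gene Bbc3, which encodes Puma, went from 27.9 to 67.5 CPM with pamidronate, by 1.27 ± 0.11 (SE), and back to 27.6 CPM with GGOH. Eda2r, a member of the TNF receptor family, rose by 1.64 ± 0.15 (SE) and fell by 1.86 ± 0.15 (SE) with GGOH. The nuclease gene Aen rose by 1.47 ± 0.10 (SE). The death receptor gene Fas fell by 0.97 ± 0.32 (SE), a call lost without pamidronate replicate 3 (adjusted p = 0.0588). In the arrest and repair list, the nuclease gene Ercc5 rose by 1.49 ± 0.12 (SE), Gadd45a, a stress and repair gene, by 1.33 ± 0.18 (SE) and Zmat3, an RNA-binding regulator of splicing, by 0.82 ± 0.09 (SE). In the same list Ephx1, an epoxide hydrolase, fell by 1.24 ± 0.11 (SE), Rrm2b, the p53-inducible ribonucleotide reductase subunit, by 0.91 ± 0.12 (SE) and Tigar, a regulator of glycolysis, by 0.67 ± 0.11 (SE). With GGOH against pamidronate 2 of the 24 rose, Rrm2b and Tigar, and 12 fell (25.2% and 23.6% of all tested genes). Against the control 2 rose and 10 fell (26.3% and 26%). By list, 5 rose and 3 fell with pamidronate in the cell death list and 3 rose and 3 fell in the arrest and repair list, and upper-quartile scaling changed both splits to 6 higher and 3 lower.

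**Figure D5:**
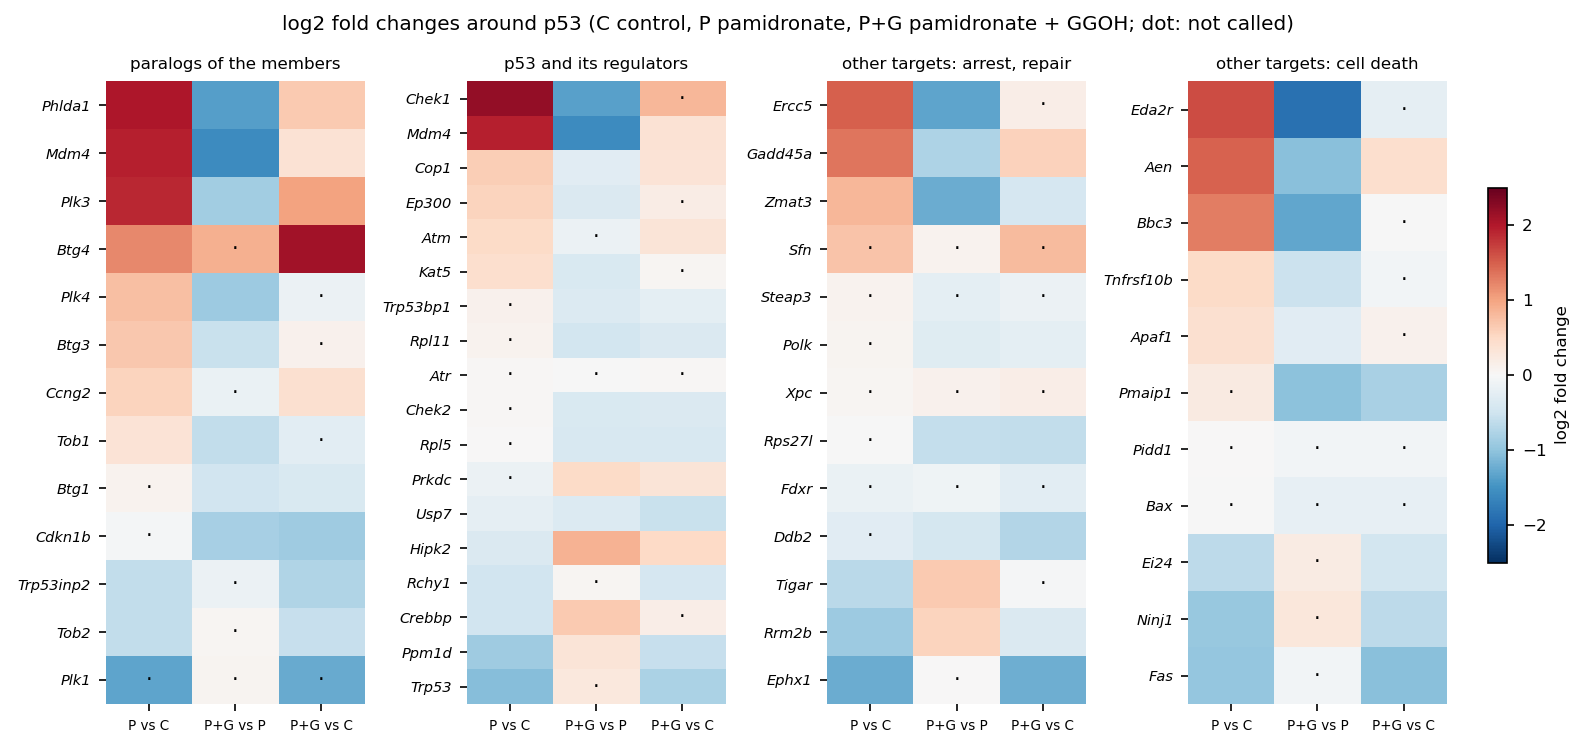
Colour gives the log2 fold change of every tested gene of 4 lists, 1 list a panel, in the 3 comparisons on the x axis, red for higher and blue for lower, with a dot where the gene was not called. The left column of each panel runs from red at the top to blue at the bottom, and in the middle column the genes at the top of each list are mostly blue.

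Genes of the cell cycle, among them the cyclins and kinases that p21 binds, were mostly lower with pamidronate. Of 19 cyclins, kinases, other inhibitors, Rb family members and replication genes, 18 were tested, and 1 rose and 14 fell, beside 36.2% higher and 32.9% lower of all tested genes, with a median of -1.10. Without single libraries, 11 to 15 fell, 11 of them without pamidronate replicate 3. The control libraries were far apart for the mitotic cyclins: Ccna2 held 15.8, 67.5 and 87.9 CPM there and Ccnb2 5.37, 25.3 and 35.6 CPM. Both fell in the test, but limma-voom and leaving out some single libraries lost the calls (adjusted p = 0.0858 for Ccna2 and 0.0956 for Ccnb2 in limma-voom). Ccnd1, which encodes the growth-factor-dependent cyclin D1, averaged 358 CPM in the control, 77.1 CPM with pamidronate and 248 CPM with pamidronate + GGOH, a fall of 2.22 ± 0.15 (SE) and then a rise of 1.69 ± 0.15 (SE). E2f1, a transcription factor of S-phase entry, fell by 1.77 ± 0.25 (SE). Ccne2, which encodes cyclin E2, was the 1 that rose, by 1.04 ± 0.25 (SE). With GGOH against pamidronate, 5 rose and 2 fell (25.2% and 23.6% of all tested genes). Against the control 11 fell by edgeR, beside 26% of all tested genes, 12 by DESeq2 and 8 under upper-quartile scaling. The number that rose there was 0 by edgeR, DESeq2 and limma-voom and at an unadjusted p under 0.05, and 1 with a replicate block.

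For Cdkn1a, Mdm2, Gdf15 and Plk2, the genes of most like course over the 9 libraries were looked up. Likeness was measured among 12265 named genes as the mean absolute difference in log2 CPM after centring each gene on its own mean. Closest to Cdkn1a were Zbtb2 (0.11), Rnf146 (0.11) and Mkrn2 (0.11). Nearest to Mdm2 lay Sfswap (0.07), Impact (0.07) and Ino80d (0.08). Gdf15 had Kctd6 (0.25), Sgk1 (0.27) and Gadd45b (0.28) as its nearest, and Sgk1 averaged 7.98, 112 and 23.7 CPM in the control, pamidronate and pamidronate + GGOH groups. Plk2 was most like Mreg (0.19), Rtn4r (0.25) and Kcnj14 (0.28), at 0.19, 0.019 and 0.14 CPM in the control. So few reads leave the log2 values of these 3 genes in the control to the prior count of 2, so their likeness to Plk2 there was not measured.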

How the data were processed

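RNA sequencing of 9 libraries was analysed from the authors' deposited table of raw counts per gene. Per the submitters' processing notes, Trimmomatic 0.36 and the GRCm38 build were used, and DESeq is named without a role. Aligner, counting tool and strandedness: not given in the sources used here. By the gene models deposited with the counts, none of the 10 genes shares exon bases with another gene. The spans of Cdkn1a, Mdm2 and Plk2 in these models differ from those in GENCODE M21. The authors also deposited TPM, which equals counts over gene length scaled per library, within 5e-05. It was used for levels between genes and for the library ranges of Sesn1, Sesn2 and Phlda3. Samples were grouped by their labelled treatment, and the labels give all of them 1 batch. Genes were kept with filterByExpr, scaled with TMM factors and fitted in 1 model of 3 group means by edgeR 4.0.16 (quasi-likelihood, robust, R 4.3.3), with Benjamini-Hochberg adjustment over all 15963 tested genes, and called at an adjusted p under 0.05. SE was taken as |log2 fold change| divided by the root of F, and CPM uses the TMM factors. The code was tested on simulated data. No library was a copy of another: chi-square over degrees of freedom was 3.72 to 32.9 between replicates. Alternatives were upper-quartile or RLE factors, a stricter filter (1 CPM in 3 libraries) or none, DESeq2 1.42.0, limma-voom 3.58.1, fits of only the 2 groups in question, an adjusted p under 0.01, a replicate block and leaving out each library.

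The 10 genes and all gene lists were chosen with earlier results of these data known. The rule for named genes took all 10 genes, any gene of the paralog and p53 circuit lists, up to 4 called genes with the largest change from each other list and comparison, and the 3 genes of most like course for 4 of the 10. Marker lists of cell types were given by their sums, and for macrophage and osteoclast markers also by counts of calls. Calcr, Acp5, Lyz2, Cd14, Cd68, Psat1, Asns and Nupr1 were named after their values were seen. The TPM ranges of Sesn1, Sesn2 and Phlda3 were also added after their values were seen.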

Additional observations from a re-analysis of the deposited data

How the results depend on the processing

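Of 30 fold changes of the 10 genes, 23 kept their direction and their side of the threshold under all 18 alternatives. Over the 540 values, 26 lost the call, 5 gained it and 5 changed sign. The losses were 11 each for Sesn1 and Ccng1 between GGOH and pamidronate and 4 for Phlda3 between GGOH and control. The gains were 1 for Sesn2 with pamidronate and 4 for Trp53inp1 between GGOH and control. The sign changes were all in uncalled values. Sesn2 with pamidronate ranged from -0.0085 without control replicate 3 to 0.14 as single libraries were left out. Between GGOH and control, Sesn2 was 0.16 with upper-quartile factors and ranged from -0.16 to 0.047 as single libraries were left out, above 0 without control replicate 2 (0.022) or GGOH replicate 1 (0.047). Cdkn1a was 0.087 there with upper-quartile factors. The cause was not tested.

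Upper-quartile factors moved the median of all tested genes by 0.19 with pamidronate and by 0.20 between GGOH and control. Of the calls, 61.9% against 52.4% were then higher with pamidronate, and 69.2% against 50.3% between GGOH and control. Leaving out 1 library at a time gave 10207 to 11433 genes called with pamidronate, 6590 to 8215 between GGOH and pamidronate, and 6923 to 8932 between GGOH and control. Of the 10 genes, 6 were then always higher and 3 always lower with pamidronate. Between GGOH and pamidronate 0 were higher and 6 to 7 lower, and between GGOH and control 3 were higher and 3 to 5 lower. A lone omission leaves 2 libraries in 1 group, with the spread estimated over all groups.

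No clear pairing by replicate number was seen, though 3 libraries a group cannot exclude one. Deviations of same-numbered libraries correlated at -0.22 to 0.20, over 0.1 for 2 of 9 pairs, and 5 of 9 correlated best with their own number. With the replicate block, 10980, 7622 and 8275 genes were called in the 3 comparisons, against 11042, 7784 and 8359 without it. Of the 10 genes, the block changed the call of Trp53inp1 between GGOH and control, to -0.41 (edgeR adjusted p = 0.0032), and no other. For 134 fold changes of 56 of the other named genes, 2295 of 2412 alternative values kept the call and 117 lost it. With 3 libraries a group, the spread between libraries limits these tests, and for Sesn2 neither a difference nor its absence is shown.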
